A study of Mus musculus with 9 samples.

Results

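The cathepsins are the acid proteases of the lysosome. The 10 genes described here, Ctsa, Ctsb, Ctsc, Ctsd, Ctse, Ctsf, Ctsh, Ctsl, Ctss and Ctsz, were the rows whose Ensembl identifier carries one of these symbols in GENCODE M21, and all 10 were found among the 28137 identifiers of the table. RNA-seq had been performed on 9 libraries of RAW264.7 cells, a mouse monocyte/macrophage leukemia line, with 3 libraries each for a control siRNA (NC), SFRP2 siRNA and RAB6A siRNA. SFRP2 is a secreted modulator of Wnt signalling, and RAB6A is a small GTPase of Golgi transport. All 3 groups, the controls included, had received 60 nM siRNA with a Lipofectamine reagent for 6 h, 12 h in complete medium, and then lipopolysaccharide (LPS) at 100 ng/ml for 24 h, so no group without LPS or without siRNA was measured. The line was grown in DMEM with 10% serum. The titles number the libraries of each group, and the study's supplement lists 3 different, numbered SFRP2 siRNA sequences. Whether each SFRP2 library received the same siRNA is not stated. Nor does any label say that the 3 libraries of a group came from separate cultures, so p-values measure the spread between these libraries only.

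Cathepsins are made as inactive proenzymes in the endoplasmic reticulum. They are carried from the Golgi to the lysosome mostly by mannose 6-phosphate receptors, lose their propeptide at acid pH, and degrade proteins taken up by endocytosis, phagocytosis or autophagy. In macrophages they also cut the invariant chain and antigens for presentation on MHC class II, and they are held in check by cystatins, stefins and serpins. The family is a mixture of unrelated catalytic types. Of the 10 members, 7 are cysteine proteases (Ctsb, Ctsc, Ctsf, Ctsh, Ctsl, Ctss and Ctsz), 2 are aspartic proteases (Ctsd and Ctse) and 1 is a serine carboxypeptidase (Ctsa).

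The catalytic types can be read from the coding sequences. For 8 members, 33 bases of the GENCODE M21 coding sequence around the codon of the catalytic residue are shown 5′ to 3′, with that codon in capitals, to show which members share an active site. In the cysteine proteases the capitals mark the codon of the active-site cysteine.
Ctsb: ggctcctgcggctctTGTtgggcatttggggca
Ctsl: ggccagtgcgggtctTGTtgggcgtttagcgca
Ctss: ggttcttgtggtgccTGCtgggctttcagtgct
Ctsh: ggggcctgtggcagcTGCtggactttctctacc
Ctsz: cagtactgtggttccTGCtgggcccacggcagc
Ctsc: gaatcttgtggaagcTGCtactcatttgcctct
In the aspartic protease Ctse they mark the first catalytic aspartate, and in Ctsa the catalytic serine.
Ctse: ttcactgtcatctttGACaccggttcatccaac
Ctsa: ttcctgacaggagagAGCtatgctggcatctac
The cysteine is written as TGC in 4 of the 6 cysteine proteases shown and as TGT in 2, Ctsb and Ctsl. On GRCm38 the catalytic codon of Ctse lies in exon 4 of 10 (chr1:131663371-131663373, + strand), that of Ctsc in exon 6 of 7 (chr7:88308027-88308029, + strand) and that of Ctsb in exon 4 of 10 (chr14:63135717-63135719, + strand). That of Ctsz lies in exon 2 of 6 (chr2:174438196-174438198, - strand). The windows of Ctsb and Ctsc each span an exon junction and are therefore not a single genomic stretch.

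In the control libraries the members ran from levels among the highest of the library down to the limit of detection, and the order of their levels was almost the same in the 3 groups. Values are FPKM, reads scaled to exon length and to library size. The length is that of all annotated exons of a gene merged. Levels of different genes can thus be compared only as far as this length matches the transcripts present. In NC, Ctsz, a carboxypeptidase, had the highest level with 632 ± 34.5 FPKM (SD, n = 3). Ctss, an endopeptidase that stays active at neutral pH, had 488 ± 13.6 and Ctsb, an endopeptidase and dipeptidyl carboxypeptidase, 479 ± 12.6 FPKM (SD, n = 3). The libraries of Ctss and Ctsb overlapped, so their order was not resolved, whereas those of Ctsz and Ctss did not overlap. These 3 genes held 77.8% ± 0.273 (SD, n = 3) of the summed FPKM of the 10 members. They ranked between places 46 and 69 among all identifiers in the NC libraries.

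Ctsd, the aspartic protease of the lysosome, followed with 168 ± 10.5 FPKM (SD, n = 3), and Ctsa, a carboxypeptidase that also protects β-galactosidase and neuraminidase, with 164 ± 6.93 FPKM (SD, n = 3). Their libraries overlapped in all 3 groups. Ctsl, an endopeptidase, had 88.5 ± 4.56 FPKM (SD, n = 3). Ctsc, the dipeptidyl peptidase that activates granule serine proteases, had 18.7 ± 0.829 and Ctse, an endosomal aspartic protease, 14.6 ± 1.01 FPKM (SD, n = 3). Ctsf, a cysteine protease known to cut the invariant chain in macrophages, had 2.53 ± 0.341 FPKM (SD, n = 3). Ctsh, an aminopeptidase, was close to the limit of detection with 14 to 24 reads per NC library. It was the member that did not pass the filter of a mean FPKM of 0.5, so 9 of the 10 were tested.

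**Figure D1:**
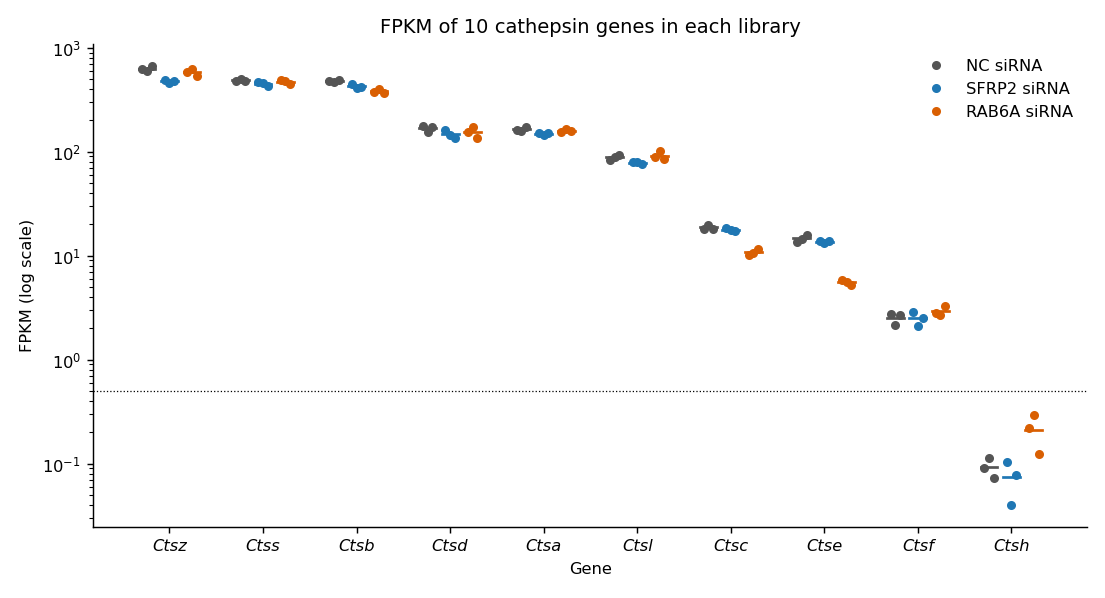
FPKM of the 10 cathepsin genes on a log axis, with 1 point per library, a short line at each group mean and a dotted line at the filter of 0.5 FPKM. In NC the means fall from 632 for Ctsz to 0.0924 for Ctsh, and the RAB6A points of Ctsc and Ctse lie below those of the other groups.

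Counted as reads instead of per length, the order changed, because the members differ in exon length from 1358 bases for Ctss to 6489 for Ctsl. Ctsb then took 45.4% of the family's reads in NC against 23.3% of its FPKM, and Ctss 10.4% against 23.8%. The read-based shares count sequenced material, and the FPKM-based shares correct for the merged length of all annotated exons. Where the transcripts present are shorter than this length, the FPKM understates the gene, and this was not examined.

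The summed FPKM of the 10 members was 2034, 2013 and 2119 in the NC libraries, 1832, 1725 and 1729 in the SFRP2 libraries, and 1871, 1967 and 1755 in the RAB6A libraries. Both siRNA groups lay below NC without overlap. As a share of all FPKM in a library the family made up 0.558% ± 0.0163 in NC, 0.479% ± 0.0224 in SFRP2 and 0.458% ± 0.0201 in RAB6A (SD, n = 3). The total of all FPKM itself differed, from 361817 to 373756 in the NC and SFRP2 libraries and from 399883 to 410877 in the RAB6A libraries.

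Library size, recovered from the steps between low FPKM values, was between 32758729 and 47149258 reads, and all members gave whole reads. Genes with 2 reads outnumbered genes with 1 read in every library (for NC library 1, 2135 against 748), so the mates of a pair appear to be counted separately in most cases and the reads are not independent. Ctsb had 73519 to 133568 reads per library and Ctse 541 to 2176. The RAB6A libraries stood apart from the others as a group. They listed 12866 to 13014 genes at 0.5 FPKM or more, against 11951 to 12144 in the other 6 libraries. Rab6a itself was 25.7 ± 1.48 FPKM in NC and 20.7 ± 0.445 in the RAB6A group (SD, n = 3; log2 fold change -0.31, adjusted p = 0.0024, limma). In this comparison the median absolute log2 fold change of all genes was 0.63, and 74.1% of them were called. Sfrp2 had 2 reads in each NC library, 4, 4 and 2 in the SFRP2 libraries and 4, 3 and 4 in the RAB6A libraries, so its silencing could not be checked at this depth. Macrophage markers were present, with 11 of 12 at a mean of 0.5 FPKM or more in each group. With RAB6A siRNA against NC, 4 of the 11 tested were called higher and 3 lower, beside 37.6% and 36.5% of all genes. Markers of granulocytes, T cells and B cells were under this mean of 0.5 FPKM in every group. Of the fibroblast, endothelial, epithelial and dendritic cell markers 0 to 3 per list reached it, with a summed level of at most 3.45 FPKM in any library. Of the markers of LPS-treated macrophages all 6 were present in each group, at a summed 4329 to 4616 FPKM in NC, 4059 to 4245 in SFRP2 and 2461 to 2635 in RAB6A. Of these sums, Acod1 alone had a mean of 2458 FPKM in NC and 624 in RAB6A.

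RAB6A siRNA was compared with NC to ask which cathepsins differed. Ctse, Ctsc and Ctsb were lower, and none of the 9 tested was higher (limma on log2(FPKM + 0.1), Benjamini-Hochberg adjusted p under 0.05 over all genes tested). These 3 of 9 stand against 74.1% of all 12712 genes tested, of which 36.5% were called lower. A further 37.6% of all genes were called higher. Among the 9 tested, the same 3 were those whose groups did not overlap, all with RAB6A lower. This stands beside 77.4% of all genes in either direction and 38.2% with RAB6A lower. Ctsh, not tested, is given below. Whether fewer cells of a kind or less RNA per cell lies behind a value cannot be told apart in bulk libraries. The median log2 fold change of the 9 was -0.12, against 0.03 over all genes, and the median absolute log2 fold change of all genes was 0.63. Of the 9, Ctse alone was also past an absolute log2 fold change of 1, beside 30.1% of all genes in either direction and 12.8% with a fall of this size. A rise of this size was called for 17.3% of all genes and for no member.

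Ctse read 13.7, 14.6 and 15.7 FPKM in NC, 13.9, 13.2 and 13.8 in SFRP2 and 5.83, 5.58 and 5.21 in RAB6A. All 3 RAB6A libraries lay under every other library by a wide margin. The difference from NC was 2.61-fold (log2 fold change -1.38, 95% CI -1.56 to -1.21, adjusted p = 4.49e-06, limma). Its share of the family's FPKM went from 0.712% ± 0.0354 to 0.297% ± 0.0141 (SD, n = 3).

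Ctsc read 18.2, 19.6 and 18.2 FPKM in NC, 18.6, 17.6 and 17.2 in SFRP2 and 10.1, 10.6 and 11.6 in RAB6A. The RAB6A libraries again lay below all others. The fall was 1.73-fold (log2 fold change -0.79, 95% CI -0.96 to -0.62, adjusted p = 4.04e-05, limma). Of the 8 listed proteases that cathepsin C activates in granulocytes and lymphocytes, 5 were in the table and none passed the filter. The most abundant of them, Gzmb, had a mean of 0.166 FPKM in NC.

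Ctsb read 476, 468 and 493 FPKM in NC, 448, 411 and 416 in SFRP2 and 378, 400 and 371 in RAB6A. The 3 groups did not overlap. The RAB6A group was 1.25-fold lower than NC (log2 fold change -0.32, 95% CI -0.47 to -0.18, adjusted p = 0.00205, limma). After correction of all genes for GC content and exon length this value was -0.12 with an adjusted p of 0.0963, so the call was lost. Of the exon bases of Ctsb, 12.8% overlap Fdft1 on the opposite strand, which rose from 11.6 to 17.99 FPKM on average (log2 fold change 0.63, adjusted p = 0.00054, limma). The source of reads in the shared bases cannot be told apart, since no strand setting of the counting is given in the sources used here.

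**Figure D2:**
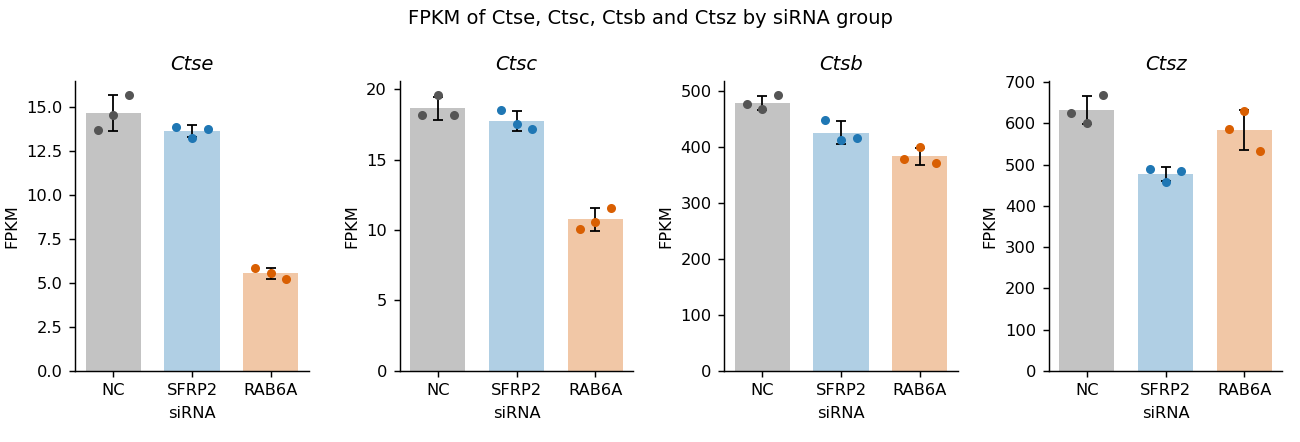
FPKM of Ctse, Ctsc, Ctsb and Ctsz from 0, with bars at the group means, error bars of 1 SD (n = 3) and 1 point per library. Ctse and Ctsc are lowest in RAB6A, Ctsb steps down from NC to SFRP2 to RAB6A, and Ctsz is lowest in SFRP2.

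The other 6 tested members did not pass the threshold. Ctsz read 626, 601 and 669 FPKM in NC and 587, 631 and 533 in RAB6A, which overlapped (log2 fold change -0.12, 95% CI -0.31 to 0.08). Ctsd had -0.12 (95% CI -0.36 to 0.11), Ctsa -0.05 (-0.18 to 0.09) and Ctss -0.05 (-0.19 to 0.10). Ctsl had 0.05 (-0.14 to 0.24) and Ctsf 0.21 (-0.09 to 0.51). The widest of these intervals, that of Ctsf, reached 1.42-fold. Under the GC and length correction Ctsz (-0.56), Ctss (-0.28), Ctsd (-0.25) and Ctsl (0.25) passed the threshold, and under quantile normalization Ctsz (-0.64), Ctss (-0.58), Ctsd (-0.32) and Ctsa (-0.24) did. Ctsh had 17, 24 and 14 reads in NC and 36, 50 and 18 in RAB6A, 0.0924 ± 0.0200 and 0.212 ± 0.0861 FPKM (SD, n = 3). Its groups did not overlap, and the exact two-sided permutation test gave p = 0.1, the smallest that 3 libraries against 3 allow.

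SFRP2 siRNA was compared with NC as the main contrast of the study's design. No cathepsin was called, and 0.00% of the 12017 genes tested were (limma; 2220 genes had an unadjusted p under 0.05, and voom on recovered reads called 41). The study itself reports genes changed in both directions by SFRP2 siRNA in RAW264.7 cells. Its methods name DESeq2, which takes counts and was not repeated here. All 9 tested members had a mean below NC, with log2 fold changes from -0.41 to -0.02 and a median of -0.14, against a median of -0.01 over all genes. For 4 members, Ctsz, Ctsl, Ctsb and Ctsa, the unadjusted p was under 0.05 with SFRP2 lower, beside 10.7% of all genes in this direction and 18.5% in either. For 5 members, these and Ctss, the groups did not overlap, all with SFRP2 lower, beside 13.9% of all genes with SFRP2 lower, 10.9% with SFRP2 higher and 24.7% in either direction. The 9 members were measured in the same libraries and do not count as separate evidence.

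Ctsz had the lowest log2 fold change of the family, at the 3.03 percentile of all genes tested. It read 626, 601 and 669 FPKM in NC and 490, 457 and 484 in SFRP2, with the highest SFRP2 library below the lowest NC library. The ratio was 0.755 (log2 fold change -0.41, 95% CI -0.54 to -0.27, unadjusted p = 0.000222, adjusted p = 0.144, limma). With voom on the recovered reads Ctsz was among the 41 genes called (adjusted p = 0.0122). Over the other alternatives its adjusted p was up to 0.447. Its share of the family's FPKM was 30.7% ± 0.863 in NC, 27.1% ± 0.787 in SFRP2 and 31.3% ± 0.839 in RAB6A (SD, n = 3).

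Ctsl read 83.7, 89.1 and 92.7 FPKM in NC and 79.3, 78.8 and 76.2 in SFRP2 (log2 fold change -0.18, 95% CI -0.30 to -0.06, adjusted p = 0.182, limma). Ctsb, given above, had a log2 fold change of -0.17 (95% CI -0.30 to -0.05, adjusted p = 0.197, limma). This member was at 0.00 under quantile normalization. Ctsa read 161, 159 and 172 in NC and 150, 144 and 153 in SFRP2 (log2 fold change -0.14, adjusted p = 0.220, limma). Ctss read 477, 503 and 484 in NC and 466, 455 and 431 in SFRP2 (log2 fold change -0.11, adjusted p = 0.288, limma). Under quantile normalization the value of Ctss was 0.03. Ctsd read 176, 156 and 172 in NC and 163, 145 and 136 in SFRP2, which overlapped (log2 fold change -0.18, adjusted p = 0.276, limma). The means of Ctse, Ctsc and Ctsf in SFRP2 were 0.932, 0.953 and 0.985 times those of NC, with overlapping libraries. Ctsh had 19, 7 and 12 reads in SFRP2, which overlapped NC in FPKM (exact two-sided permutation test, p = 0.5).

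The siRNA groups were compared with each other because both are set against the same NC libraries, and their differences from NC are therefore not independent. SFRP2 was higher than RAB6A for Ctse (2.43-fold, log2 fold change 1.28, 95% CI 1.13 to 1.44) and Ctsc (1.65-fold, 0.72, 0.55 to 0.89). It was lower for Ctsz (log2 fold change -0.29, adjusted p = 0.0146) and Ctsl (-0.23, adjusted p = 0.0283, limma). These are 4 of 9 tested, 2 in each direction, beside 73.4% of the 12764 genes tested, of which 35.8% were called higher and 37.6% lower. Ctse alone was also past an absolute log2 fold change of 1, beside 31.1% of all genes, of which 13.3% were higher and 17.8% lower. Ctsb was 0.15 higher in SFRP2 without passing the threshold (95% CI -0.01 to 0.31, adjusted p = 0.0746, limma). The direction for Ctsz turned under quantile normalization (0.35) and under the GC and length correction (0.26), and both of these fits called it higher in SFRP2. Ctsz passed the threshold in 17 of 19 settings, with calls in both directions. Leaving out SFRP2 library 2 left 2 members called, Ctse and Ctsc.

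**Figure D3:**
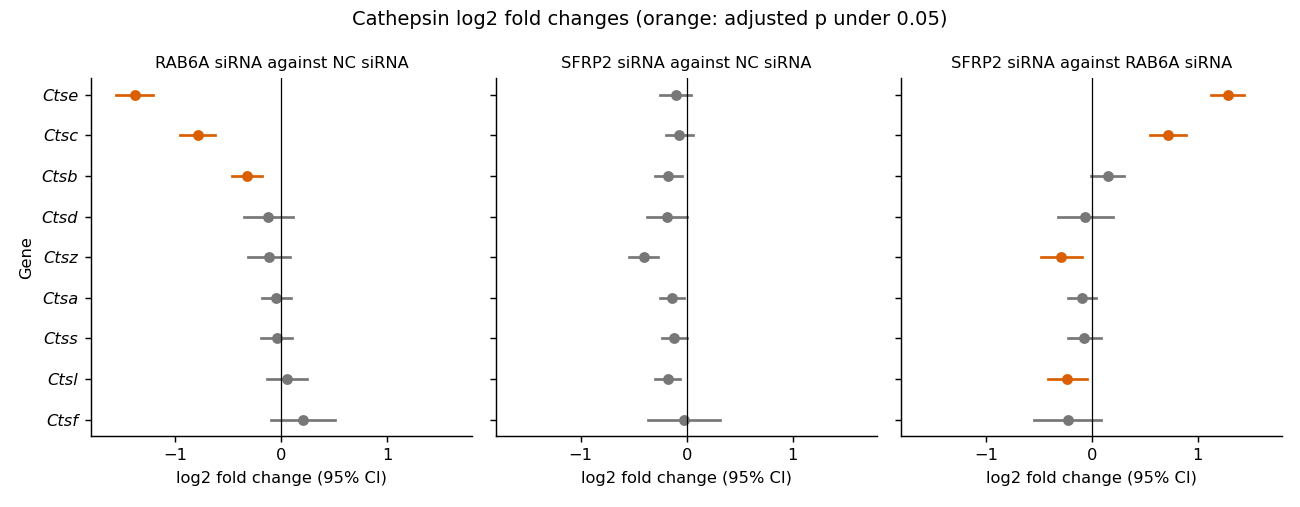
Log2 fold change with its 95% CI for the 9 tested cathepsins in the 3 comparisons, with orange for an adjusted p under 0.05. Ctse lies at -1.38 for RAB6A against NC and at -0.10 for SFRP2 against NC, and every member lies left of 0 for SFRP2 against NC.

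Other cathepsin genes were read from a list of 13. Of these, 3 were in the table and 2 passed the filter, and both were called lower with RAB6A siRNA, beside 36.5% of all genes called lower and 74.1% called in either direction. The lists that follow were read against the same shares of all genes, and no list was tested against them. Ctsk, the collagen-degrading protease of osteoclasts, read 2.21, 1.28 and 1.63 FPKM in NC and 0.437, 0.629 and 0.868 in RAB6A (log2 fold change -1.29, adjusted p = 0.0036, limma). Ctso, a cysteine protease, went from 2.19 ± 0.274 to 1.39 ± 0.0983 FPKM (SD, n = 3; log2 fold change -0.62, adjusted p = 0.0027, limma). Ctsw, which is known from lymphocytes, did not exceed 0.140 FPKM in any library. Of 8 osteoclast markers 7 were in the table and 5 were tested, of which Ctsk, Acp5 (-1.99) and Atp6v0d2 (-1.23) fell and Dcstamp (0.77) and Mmp9 (1.11) rose on the log2 scale. The summed level of the 7 was 27.5 to 29.9 FPKM in NC and 39.2 to 41.3 in RAB6A, most of it from Dcstamp, with a mean of 21.7 FPKM in NC and 37.1 in RAB6A. The part of these markers in the cathepsin values was not tested.

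Of 21 listed inhibitors of cathepsins, 13 were tested with RAB6A siRNA, 5 rose, 5 fell and 3 were not called, close to the 37.6% higher and 36.5% lower of all genes, with a median log2 fold change of -0.08. Cst3, the secreted cysteine protease inhibitor cystatin C and the most abundant gene of the list, read 310, 329 and 345 FPKM in NC and 602, 610 and 490 in RAB6A. This was a rise of 1.72-fold (log2 fold change 0.78, adjusted p = 0.00022, limma), and no RAB6A library overlapped NC. Serpinb6b, an intracellular serine protease inhibitor, rose from 18.01 ± 1.14 to 73.3 ± 3.11 FPKM, and Serpinb1a, of the same family, from 0.168 ± 0.0892 to 0.986 ± 0.285 FPKM (SD, n = 3). Stfa3, a stefin, fell from 3.34 ± 0.895 to 1.37 ± 0.315 FPKM, and A2m, alpha-2-macroglobulin, from 1.69 ± 0.172 to 0.0121 ± 0.00416 FPKM (SD, n = 3).

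Of 11 genes for the sorting of cathepsins to the lysosome, all tested, 7 fell, 1 rose and 3 were not called. The list holds carriers and enzymes of the mannose 6-phosphate tag. Of all genes, 36.5% were called lower, 37.6% higher and 74.1% in either direction. The median log2 fold change of the 11 was -0.30. Igf2r, the cation-independent mannose 6-phosphate receptor, read 9.80, 9.59 and 9.82 FPKM in NC and 3.74, 3.55 and 3.51 in RAB6A (log2 fold change -1.41, adjusted p = 2.1e-06, limma). Nagpa, the enzyme that uncovers the mannose 6-phosphate tag, went from 24.5 ± 2.39 to 10.5 ± 0.712 FPKM, and M6pr, the cation-dependent receptor, from 110.5 ± 1.71 to 86.1 ± 3.43 FPKM (SD, n = 3). Gga1, a Golgi adaptor of these receptors, was the member that rose, from 20.9 ± 1.76 to 27.4 ± 0.541 FPKM (SD, n = 3).

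Of 7 processing enzymes and partners tested, 5 rose, 1 fell and 1 was not called, beside 37.6% of all genes called higher and 36.5% lower, with a median log2 fold change of 0.42. Lgmn, the asparaginyl endopeptidase that trims several cathepsins, read 143, 147 and 157 FPKM in NC and 245, 256 and 239 in RAB6A (log2 fold change 0.73, adjusted p = 2.9e-05, limma). Neu1, the sialidase that is held in a complex with the Ctsa protein, rose from 26.7 ± 1.05 to 42.0 ± 1.69 FPKM (SD, n = 3), while Ctsa had -0.05. Ifi30, a lysosomal thiol reductase, fell from 65.1 ± 5.13 to 55.7 ± 1.57 FPKM (SD, n = 3).

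Among class II presentation genes, where Ctss and Ctsf act, 4 of 10 were tested, 3 rose and 1 fell, beside 37.6% of all genes called higher and 36.5% lower. Cd74, the invariant chain, read 59.4, 67.2 and 73.4 FPKM in NC, 61.3, 59.0 and 56.8 in SFRP2 and 222, 238 and 232 in RAB6A (log2 fold change against NC 1.79, adjusted p = 2.6e-06, limma). Ctss was 489, 479 and 451 FPKM in the same RAB6A libraries. H2-Oa rose from 0.219 ± 0.129 to 1.76 ± 0.158 FPKM and H2-DMa fell from 1.01 ± 0.194 to 0.516 ± 0.158 FPKM (SD, n = 3), both low beside Cd74. H2-Ab1, a class II chain, was also low, at 0.494 ± 0.151 and 1.59 ± 0.284 FPKM (SD, n = 3). Ciita, H2-Aa and H2-Eb1 did not pass the filter, with means of 0.00612, 0.0667 and 0.283 FPKM in RAB6A.

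Of 40 other lysosomal hydrolases and membrane proteins tested, 15 rose, 13 fell and 12 were not called, close to the 37.6% higher and 36.5% lower of all genes, with a median log2 fold change of 0.04. The largest rises were Pla2g15, a lysosomal phospholipase, from 2.54 ± 0.380 to 8.31 ± 0.348 FPKM and Naglu, an enzyme of heparan sulfate degradation, from 4.53 ± 0.105 to 12.6 ± 1.19 FPKM (SD, n = 3). The largest falls were Acp5, tartrate-resistant acid phosphatase, from 3.21 ± 0.221 to 0.728 ± 0.0326 FPKM and Arsb, a sulfatase, from 21.996 ± 1.88 to 9.74 ± 2.17 FPKM (SD, n = 3). Cd68, the most abundant of the list, was 1850 ± 110 and 1682 ± 84.2 FPKM (SD, n = 3; log2 fold change -0.14, adjusted p = 0.18, limma). No gene of any of these lists was called with SFRP2 siRNA, beside 0.00% of all 12017 genes tested, so this says nothing particular to the lists.

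**Figure D4:**
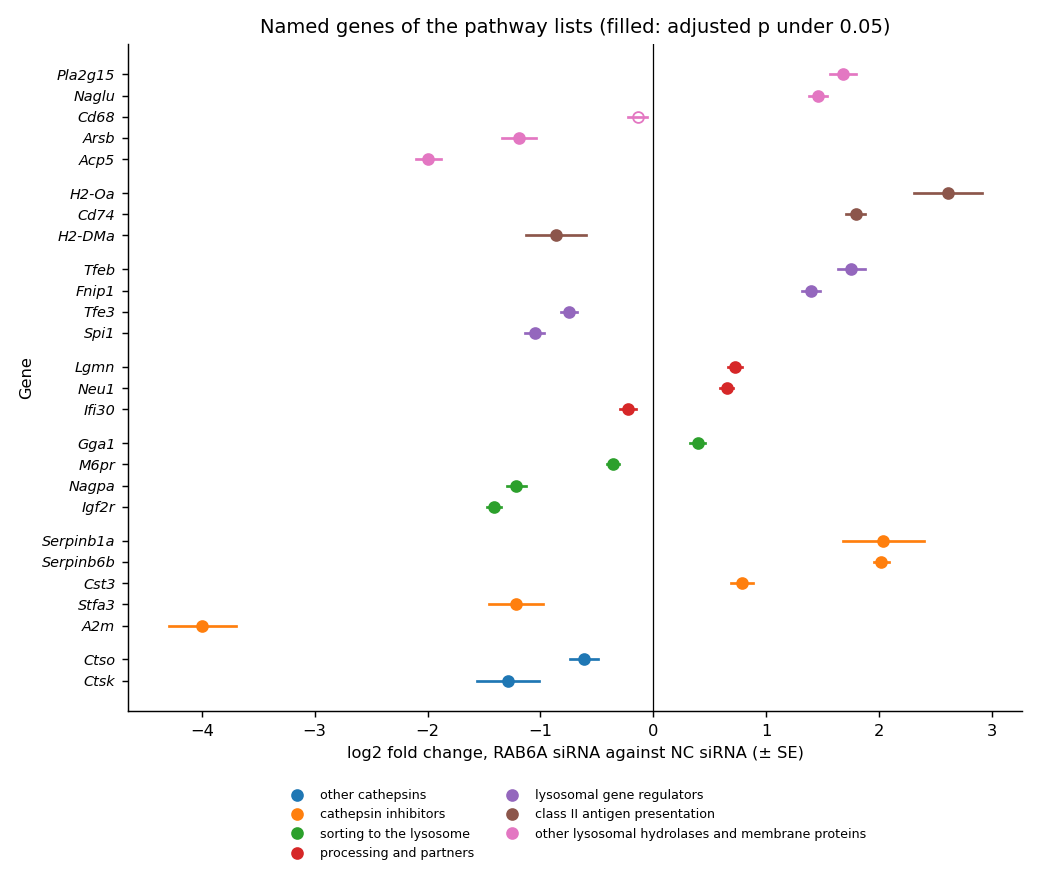
Log2 fold change with its SE for RAB6A siRNA against NC siRNA in the genes named from the pathway lists, coloured by list and filled where the adjusted p was under 0.05. Values run from -3.99 for A2m, which was at 0.0121 FPKM in RAB6A so that its value depends on the pseudocount, to 2.61 for H2-Oa.

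Of 9 regulators of lysosomal genes tested, 6 rose, 2 fell and 1 was not called, beside 37.6% of all genes called higher and 36.5% lower. Tfeb, a transcription factor of lysosomal genes that binds the CLEAR element, rose from 0.976 ± 0.0327 to 3.55 ± 0.437 FPKM, and its relative Tfe3 fell from 14.1 ± 0.839 to 8.37 ± 0.367 FPKM (SD, n = 3). Fnip1, a partner of folliculin, rose from 6.97 ± 0.643 to 18.5 ± 0.830 FPKM (SD, n = 3). Spi1, the myeloid factor PU.1, read 126, 124 and 141 FPKM in NC, 120, 109 and 114 in SFRP2 and 68.1, 63.4 and 57.3 in RAB6A (log2 fold change against NC -1.05, adjusted p = 2.0e-05, limma).

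Promoters were read for the letters of a set of known regulatory sites, among them the CLEAR element and a PU.1-like site. RefSeq sequences of GRCm38.p6, 250 bases before a start site, were given for 7 of the 10 members, with 8 start sites in all, and none was given for Ctsb, Ctse and Ctsh. Those of Ctsc, which fell, and of Ctsd and Ctsa, which were not called, are shown 5′ to 3′ on the strand of the gene, with the searched letters in capitals where they occur on either strand.
Ctsc, chr7:88277835-88278084, + strand: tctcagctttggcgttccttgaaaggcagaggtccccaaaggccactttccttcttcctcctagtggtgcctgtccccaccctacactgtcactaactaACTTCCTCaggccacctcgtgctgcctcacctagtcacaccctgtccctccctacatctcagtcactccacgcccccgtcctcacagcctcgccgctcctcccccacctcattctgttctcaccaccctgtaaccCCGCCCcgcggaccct
Ctsd, chr7:142387828-142388077, - strand: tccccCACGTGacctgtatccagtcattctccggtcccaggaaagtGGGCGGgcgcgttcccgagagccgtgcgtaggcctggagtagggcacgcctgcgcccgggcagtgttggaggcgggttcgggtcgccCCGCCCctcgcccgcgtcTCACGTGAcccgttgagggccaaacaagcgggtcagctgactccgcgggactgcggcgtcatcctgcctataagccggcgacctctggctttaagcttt
Ctsa, chr2:164833523-164833772, + strand: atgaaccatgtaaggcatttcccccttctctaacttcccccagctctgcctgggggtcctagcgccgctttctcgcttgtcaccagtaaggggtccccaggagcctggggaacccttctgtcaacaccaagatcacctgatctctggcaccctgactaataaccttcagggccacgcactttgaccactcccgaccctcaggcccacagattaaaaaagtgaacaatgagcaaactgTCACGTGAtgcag
The letters TCACGTGA, the palindromic core of the CLEAR element, occurred in 2 of the 8 promoters, those of Ctsd and Ctsa, and in 0.79% of 32851 promoters of this length. The E-box CACGTG, which these contain, occurred in 4 of 8, those of Ctsa, Ctsd, Ctsl and Ctsf, against 6.02%. The PU.1-like letters GAGGAAGT occurred in 1 of 8, that of Ctsc, against 2.44%, and the letters of an interferon-stimulated response element in 1 of 8, that of Ctss, against 2.98%. The GC box GGGCGG was found in 5 of 8, against 32.7% of all. The letters of an NF-kB site (0.14% of all) and of an AP-1 site, TGACTCA (4.46%), were found in none of these windows. Such matches describe the letters and were not tested as binding sites.

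Some members share exon bases with other genes, which bears on their values because no strand setting is given. Ctsd (chr7:142375911-142388038, - strand) shares 34.4% of its exon bases with Gm49369 on the same strand, and Ctsl (chr13:64359337-64370890, - strand) shares 26.9% with the antisense gene Gm47123 and 6.09% with the pseudogene Gm49230. These 3 genes are not among the identifiers with FPKM values, so they could not be analysed. Ctsa shares 10.5% with Pltp, on the opposite strand, which had 0.569 FPKM in NC and 2.28 in RAB6A on average beside 164 and 159 for Ctsa. Ctse (chr1:131638306-131675505, + strand) and Ctsc (chr7:88278085-88310888, + strand) share exon bases with no other annotated gene.

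The genes whose log2(FPKM + 0.1) ran most like that of each member over the 9 libraries were listed as a description, among 12548 genes. For Ctse they were Pdgfb, Ppil1 and Slc20a2, and for Ctsc Chtop, Selenos and Gnl2. Such likeness was common, since 2203 genes had a Pearson correlation over 0.95 with Ctse and 2272 with Ctsc, and the points share the group difference. For Ctsb, where 67 genes passed 0.95, they were Ogfr, Ehd1 and Pold2. Ctsz was followed by Grk2, Ripk3 and Lonp1, Ctsd by Sqstm1, Gtpbp3 and Dhrs7, Ctsl by Smpdl3b, 1190007I07Rik and M1ap, and Ctsa by Sec13, Gsn and Tkt, with 1 to 4 genes over 0.95 each. No gene reached 0.95 for Ctss, led by B3galt4, Mus81 and Endod1, or for Ctsf, led by Trak1, Gm25128 and Cby1. Within the family the highest value was 0.97 between Ctsc and Ctse, followed by 0.89 between Ctsa and Ctsz, over the same 9 libraries.

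**Figure D5:**
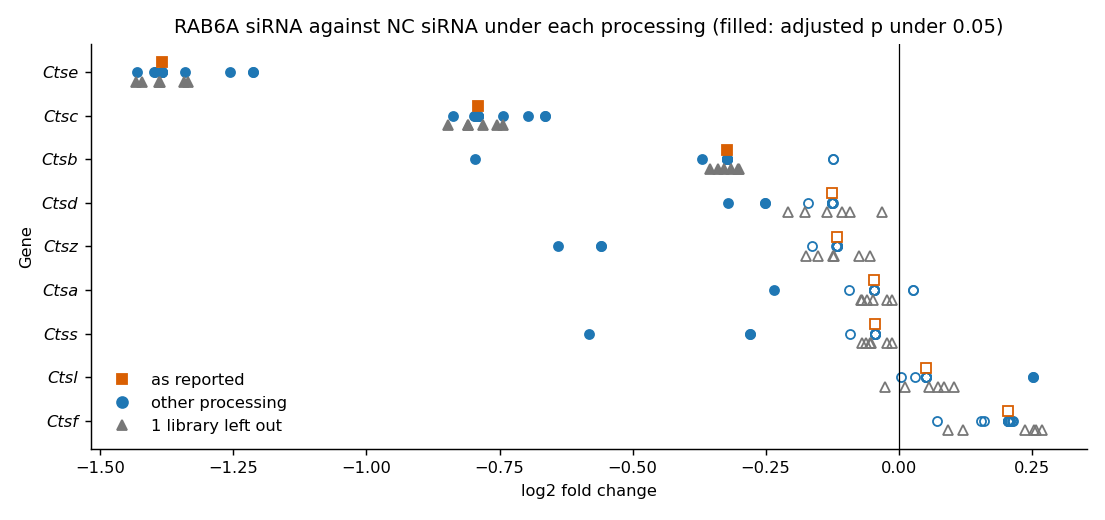
Log2 fold change of RAB6A siRNA against NC siRNA for the 9 tested cathepsins as reported (squares), under other processing (circles) and with 1 library left out (triangles), filled where the adjusted p was under 0.05. Ctse stays between -1.43 and -1.21 and Ctsc between -0.85 and -0.66, while Ctsb ranges from -0.80 to -0.12.

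Ctse and Ctsc in RAB6A siRNA against NC passed the threshold in 19 of 19 settings, the reported one included, and Ctsb in 17 of 19. The summed level of the LPS-treated macrophage markers was also lower in the RAB6A libraries, without overlap with the ranges of the other groups given above. Most of this fall was that of Acod1, which went from 2422, 2422 and 2530 FPKM to 629, 625 and 619. Of the 6 markers, 3 were called lower, 2 higher and 1 was not called, beside 36.5% of all genes called lower and 37.6% higher. Ptgs2, among those higher, went from 494, 468 and 513 to 720, 751 and 896. The part of this shift in the cathepsin values was not tested.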

How the data were processed

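The authors deposited FPKM per gene for 9 paired-end libraries, with no strand setting stated. The submitters' processing notes name HISAT2, featureCounts and Subread, and the genome build is not given in the sources used here. Identifiers were named from GENCODE M21 (27533 of 28137). With its exon lengths, 98.37% of named genes gave whole reads within 0.03. Genes averaging 0.5 FPKM or more in the 6 libraries compared were fitted as log2(FPKM + 0.1) in limma 3.58.1 (R 4.3.3, eBayes with trend), and Benjamini-Hochberg adjustment covered every gene fitted. The fit was also run on simulated reads to check its code. Their effects and noise were set in advance, so this run gives no measure of accuracy for these data. Ctsh, under this level, was compared by exact permutation. Members, lists and motifs were chosen with earlier results of these data known. Named genes were the members, Rab6a, Sfrp2, other cathepsins above 0.5 FPKM, the 3 genes most alike to each tested member, exon-overlapping genes and, per list, up to 2 called genes at each end and the most abundant. Acod1, Ptgs2, Ctsw, Dcstamp, Atp6v0d2, Mmp9, H2-Ab1, Ciita, H2-Aa and H2-Eb1 were chosen after their values were seen. Alternatives are given in the closing section. The labels' protocol (LPS alone, DMEM) differs from the study's methods and was followed. The active-site sequences of Ctsd and Ctsf are not reported here.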

Additional observations from a re-analysis of the deposited data

How the results depend on the processing

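Over single members and alternatives, 437 log2 fold changes kept their direction and their side of the threshold. With the direction kept, 15 passed it newly and 11 no longer passed it. Another 23 changed sign and were counted apart, whether or not they passed the threshold. In RAB6A siRNA against NC, 7 cathepsins were called under quantile normalization, 6 under the GC and length correction, 5 with the replicate block and this correction, and 1 with an absolute log2 fold change over 1, by which 3829 genes were called. In SFRP2 siRNA against NC, voom on recovered reads called 41 genes and 1 cathepsin. In SFRP2 siRNA against RAB6A siRNA, 2 cathepsins were called without a filter on low values, and 1 with an absolute log2 fold change over 1, by which 3972 genes were called. With 1 library left out, 0 to 1 genes were called in SFRP2 siRNA against NC (1 without NC library 1), and 2 to 4 cathepsins in SFRP2 siRNA against RAB6A siRNA (2 without SFRP2 library 2). The cause of these differences was not tested.

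Signs changed for members not called as reported, and for Ctsz in SFRP2 siRNA against RAB6A siRNA, which was called. Ctsz passed the threshold in its reversed fits as well. Against NC, Ctsa with RAB6A siRNA was 0.027 under the GC and length correction, with or without the replicate block, and Ctsl ran from -0.026 to 0.10 with 1 library left out (-0.026 without RAB6A library 2). With SFRP2 siRNA, Ctsf was 0.081 under the GC and length correction, with or without the block, and -0.13 to 0.087 with 1 library left out, and Ctss was 0.033 under quantile normalization. In SFRP2 siRNA against RAB6A siRNA, quantile normalization gave 0.16 for Ctsa, 0.20 for Ctsd, 0.58 for Ctss and 0.35 for Ctsz. The GC and length correction, with or without the replicate block, gave -0.035 for Ctsb, 0.19 for Ctsd, 0.12 for Ctss and 0.26 for Ctsz, and Ctsd ran from -0.15 to 0.024 with 1 library left out.

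For same-numbered libraries of different groups, the correlations of their deviations ran from -0.08 to 0.05, so no pairing by number was seen in them. Whether such libraries shared a culture or batch is not given in the labels and cannot be settled by these correlations. With the replicate block alone 9103, 0 and 9159 genes and 3, 0 and 4 cathepsins were called, in the order of comparisons above. In SFRP2 siRNA against NC this block took the genes with an unadjusted p under 0.05 from 2220 to 2988. The smallest adjusted p went from 0.140 to 0.053 (limma). Replicates of a group differed by more than counting noise (15.6 or more chi-square per gene). The 3 libraries per group limit precision, and the RAB6A group cannot be told apart from any batch it was made in.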
